A study of Mus musculus with 109 samples.

Results

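The endothelium lines every vessel of the lung, and in the alveolar wall it forms the capillary side of the gas exchange surface. A set of 42 genes known to be expressed mainly in endothelial cells, or to act in them, was followed through mouse lungs exposed to cigarette smoke or filtered air. The genes were matched by their symbol and were read from Illumina bead arrays, single-colour arrays on which each probe reports 1 transcript. Of the 42 genes, 40 were measured among 11346 genes or unnamed probes. Kdr, the main VEGF receptor, has 1 probe that was detected on 0 arrays, so no level is given for it, and no probe in the annotation used here carries the symbol Cldn5, the tight junction claudin of endothelium.

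Per the labels and the series' design text, whole lung RNA came from Fam13a-/- mice (13 arrays after smoke, 6 after air), the strain NZW/LacJ (6 after smoke, 8 after air), Hhip+/- mice (14 after smoke, 12 after air) and C57BL/6J wild type (28 after smoke, 22 after air). The genotype-bearing mice carry the C57BL6 strain label, and exposure lasted 6 months, smoke from 3R4F research cigarettes being given on 5 days a week. Sex, age, litter and the construction of the alleles are not in the labels, nor is it said that each array is a separate animal, so p-values measure the spread between arrays. The series title describes emphysema models in mice set beside human lung disease, and the comparisons below ask how far endothelial transcripts differ by smoke, genotype and strain.

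Endothelial identity is kept by transcription factors of the ETS family, such as Erg, and the SOX F group, Sox7, Sox17 and Sox18. These act beside receptor systems for VEGF (Flt1, Kdr, Flt4), angiopoietins (Tek, Tie1) and BMP ligands (Acvrl1, Eng), while Pecam1, Cdh5 and related proteins join the cells to each other. Lung capillaries are rich in caveolae, for which Cav1 supplies the coat, and carry surface carbonic anhydrase, the product of Car4. In whole tissue, fewer endothelial cells and less RNA per endothelial cell cannot be told apart.

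Between 36.04% and 53.9% of probes were detected per array, with a median of 49.9%. The exposure labels were checked on Nqo1, an oxidant response gene, whose log2 signal was higher after smoke by 2.47 ± 0.35 in Fam13a-/-, 1.60 ± 0.38 in NZW/LacJ, 2.45 ± 0.28 in Hhip+/- and 2.25 ± 0.20 in C57BL/6J (± standard error, SE, from limma, adjusted p at most 0.0189). The targeted genes did not settle the genotype labels. Fam13a had log2 signals of 4.59 to 6.22 (median 5.43) in the smoke arrays labelled Fam13a-/-, against 4.98 to 7.26 (median 6.17) in C57BL/6J smoke, and the difference of -0.64 ± 0.26 had an adjusted p of 0.146. Hhip in the arrays labelled Hhip+/- differed from C57BL/6J by -0.03 ± 0.13 after smoke (adjusted p = 0.943) and by -0.04 ± 0.14 after air (adjusted p = 0.973). Where these probes lie relative to the altered part of each gene was not analysed here, and Fam13a-/- and Hhip+/- below mean arrays so labelled.

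A pair of NZW/LacJ arrays stood apart from their strain. Each NZW/LacJ array was placed over the 200 genes that differed most between the strains, on a scale where 0 is the C57BL/6J mean. The value 1 is the mean of the NZW/LacJ arrays without the array placed and without both replicate 5 arrays. That pair was thus set aside before the genes and the scale were chosen. NZW/LacJ smoke replicate 5 lay at 0.0089 and air replicate 5 at 0.048, while the remaining 12 arrays lay at 0.839 to 1.07. The same air array also went against its exposure label: its Nqo1 signal was 7.64, where the other 7 NZW/LacJ air arrays reached at most 6.21 and the 6 smoke arrays spanned 7.11 to 8.19. Cyp1a1, an enzyme induced by smoke constituents, was at 6.80 on it, the only air array of any group with Cyp1a1 detected, and was not detected on NZW/LacJ smoke replicate 5 (4.50). Both arrays are kept under their labels in the fit of all arrays, and NZW/LacJ results are given with and without both. In addition, 28 arrays, found in all 8 groups, separated from the other 81. The arrays were clustered for this on the leading principal components of the residuals, the first of which held 20.6% of the variance. Most of the 28 lay in unbroken runs of consecutive sample numbers. The labels name no batch, and whether the arrays of these runs were handled apart was not tested. Values of the endothelial genes in the 28 arrays are described last.

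Pecam1 and Cdh5, defining endothelial genes, were detected in every group. Pecam1, an adhesion molecule of endothelial junctions and platelets, had log2 signals of 10.999 to 12.67 (median 11.97) in Fam13a-/- smoke and 11.67 to 12.54 (median 12.11) in Fam13a-/- air. In NZW/LacJ it had 10.96 to 12.34 (median 11.76) after smoke and 11.17 to 12.66 (median 12.15) after air. The groups of each pair overlapped over most of their range. In Hhip+/- it had 10.98 to 12.50 (median 12.17) after smoke and 11.76 to 12.64 (median 12.23) after air, and in C57BL/6J 11.51 to 12.62 (median 12.09) after smoke and 11.39 to 12.77 (median 12.24) after air. Cdh5, the VE-cadherin of adherens junctions, differed by -0.36 ± 0.21 between smoke and air in Fam13a-/- on the log2 scale (adjusted p = 0.394), by -0.30 ± 0.23 in NZW/LacJ, by -0.08 ± 0.17 in Hhip+/- and by -0.14 ± 0.12 in C57BL/6J. Neither gene passed the threshold, an adjusted p below 0.05, in any of the 4 comparisons of smoke with air. Sele, an endothelial selectin induced by inflammation, and Prox1, the regulator of lymphatic fate, were at background on nearly every array, with Sele detected on at most 3 arrays of a group and Prox1 likewise. Erg was detected on 1 of 13 arrays in Fam13a-/- smoke and 1 of 6 in NZW/LacJ smoke, and on 4 to 13 arrays in each of the other groups.

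**Figure D1:**
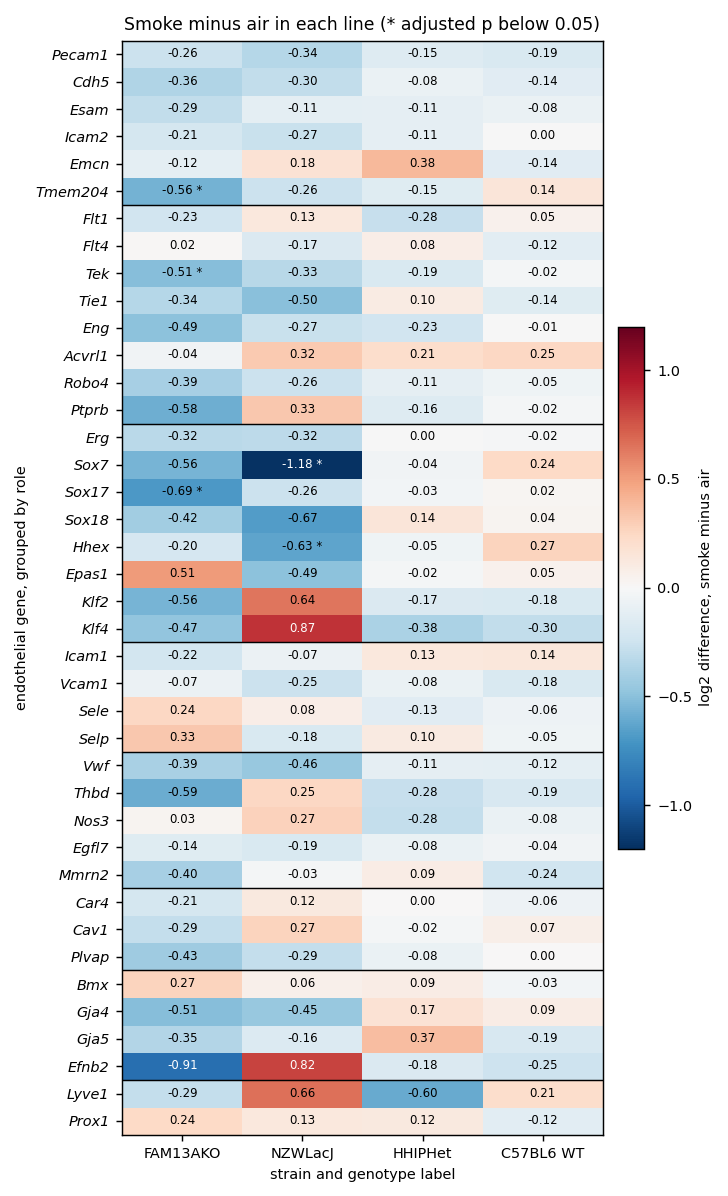
Log2 difference, smoke minus air, of 40 endothelial genes (rows, grouped by role between the black lines) in Fam13a-/- (FAM13AKO), NZW/LacJ (NZWLacJ), Hhip+/- (HHIPHet) and C57BL/6J wild-type lungs (columns); blue is lower after smoke, and an asterisk marks a limma adjusted p below 0.05. The asterisks fall on Tmem204, Tek and Sox17 in Fam13a-/- and on Sox7 and Hhex in NZW/LacJ.

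Fam13a-/- lungs had lower levels of 3 endothelial genes after smoke than after air, and 0 were higher. These 3 of 40 genes stand beside 2.18% of all 11346 genes called in that comparison, 1.31% higher and 0.864% lower. Tmem204, a membrane protein of endothelial junctions, is read by probe ILMN_3162005 and had log2 signals of 12.08 to 13.01 (median 12.28) on 13 smoke arrays, against 12.80 to 13.10 (median 13.002) on 6 air arrays. On 12 of 13 smoke arrays it lay below the air mean, and 2 smoke arrays lay within the air range. Its difference was -0.56 ± 0.11, a 1.48-fold lower signal (adjusted p = 0.00126).

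Sox17, the SOX F factor of arterial endothelium, had 8.24 to 9.53 (median 8.82) after smoke and 9.33 to 9.84 (median 9.47) after air in the same mice, with all 13 smoke arrays below the air mean. It was 1.61-fold lower (-0.69 ± 0.17, adjusted p = 0.0147). A dimmer second probe of Sox17 differed by -0.76 ± 0.33 with an adjusted p of 0.238 over all kept probes.

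Tek, the angiopoietin receptor also called Tie2, had 11.09 to 11.78 (median 11.46) after smoke and 11.81 to 12.14 (median 11.93) after air in Fam13a-/- lungs. The groups did not overlap: the highest smoke array lay below the lowest air array. Tek was 1.43-fold lower (-0.51 ± 0.15, adjusted p = 0.0397). The promoter of Tek, from 250 bases before to 50 after its start in RefSeq on build GRCm38.p6, lies at chr4:94739039-94739338 on the plus strand and is shown because its groups did not overlap; capitals mark the single match to the SOX core AACAAT, here on the minus strand as ATTGTT.

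Tek promoter: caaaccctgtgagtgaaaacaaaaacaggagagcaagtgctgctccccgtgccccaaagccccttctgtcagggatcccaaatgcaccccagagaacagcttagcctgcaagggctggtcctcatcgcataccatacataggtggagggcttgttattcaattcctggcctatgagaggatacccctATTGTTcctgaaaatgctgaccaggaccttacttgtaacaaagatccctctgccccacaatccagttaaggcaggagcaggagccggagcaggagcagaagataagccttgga

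Promoters were available for 24 of the 42 genes. On both strands, AACAAT occurred in 2 of these 24 and in 10.7% of 32851 mouse promoters of the same length, and the ETS cores CGGAAG or AGGAAG, which do not overlap AACAAT, occurred in 12 of 24 and in 46.5% of all. A match is a description of the letters, not of binding.

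The other endothelial genes of Fam13a-/- mostly lay on the same side without passing the threshold. Of the 40, 33 had a negative difference, with a median of -0.31, against a median of -0.03 for all genes tested. Among the receptors, Eng, a co-receptor for BMP ligands, differed by -0.49 ± 0.16 (adjusted p = 0.0817), and among the regulators Klf2, a factor induced by blood flow, by -0.56 ± 0.18 (adjusted p = 0.0822). Plvap, which forms the diaphragms of fenestrae and caveolae, differed by -0.43 ± 0.13 (adjusted p = 0.0536), and Gja4, a gap junction protein, by -0.51 ± 0.17 (adjusted p = 0.0924). The median of the 8 transcription factors was -0.45, of the 4 arterial genes -0.43, of the 5 coagulation, nitric oxide and secreted genes -0.39 and of the 4 leukocyte adhesion genes 0.09. Among 65 measured genes of related endothelial lists, 2 were lower and 0 higher, a share near the 2.18% of all genes called: Aplnr, the apelin receptor, by 1.89-fold (-0.92 ± 0.25, adjusted p = 0.0312), and Rasip1, a Ras-interacting protein needed for vessel lumens, by 1.61-fold (-0.68 ± 0.19, adjusted p = 0.0317).

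Marker lists of other cell types were compared in the same Fam13a-/- arrays. The 11 measured heart muscle genes had a median difference of 1.03, with a summed linear signal of 3398 to 36083 (median 26748) after smoke and 3581 to 23021 (median 9883) after air, and 0 of the 11 passed the threshold. The groups' sums overlapped. The 10 ciliated cell genes had a median of 0.46 with 1 called higher, the 11 fibroblast genes -0.35 with 1 called lower, and the 5 B cell genes -0.49 with 0 called. The summed endothelial signal was 88984 to 147484 (median 103097) after smoke and 121796 to 134875 (median 133240) after air, with 40 of 42 genes measured. Their part in the endothelial differences was not tested.

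**Figure D2:**
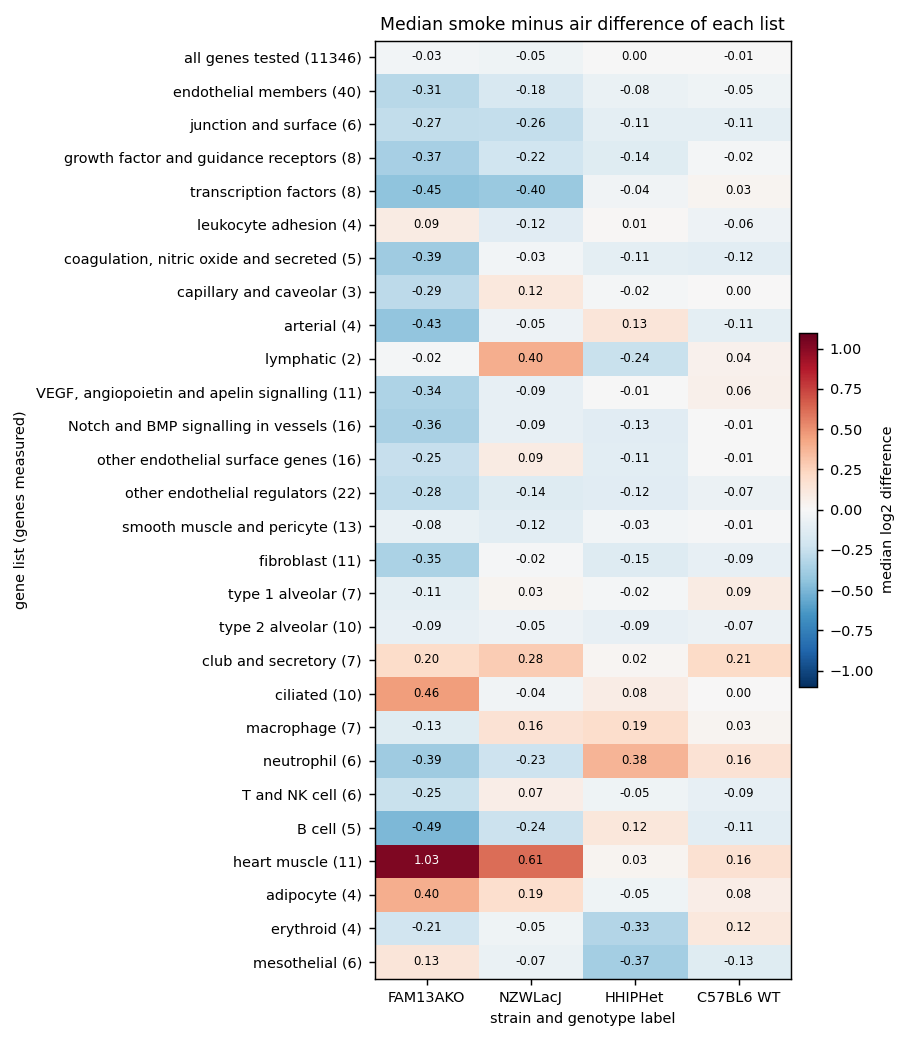
Median log2 difference, smoke minus air, of each gene list (rows, with the number of genes measured) in the 4 lines (columns). In Fam13a-/- (FAM13AKO) the endothelial lists lie between -0.45 and 0.09 and the heart muscle list at 1.03, while all genes tested have a median of -0.03.

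The 3 calls in Fam13a-/- depended on scaling and on single arrays. Median scaling over all probes in place of quantile normalization left 0 of 40 called and moved the median of all genes to -0.12, although all 3 genes kept their sign (-0.67, -0.62 and -0.85 for Tmem204, Tek and Sox17). Array quality weights called 12, for which the share of all genes called is not given here. Leaving out 1 array at a time gave 1 to 4 calls: Tmem204 passed each time, Sox17 missed without air replicate 1 or 2 (highest adjusted p 0.0714), and Tek missed in 10 of 19 such fits, with an adjusted p of up to 0.106 and a difference of -0.54 to -0.47; those were the fits without air replicates 1, 2, 3, 5 or 6 or smoke replicates 1, 2, 4, 11 or 13.

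The smoke difference of Tmem204 in Fam13a-/- also differed from that in C57BL/6J. The difference of differences was -0.71 ± 0.13 (adjusted p = 0.00464), with Tmem204 lower by 0.56 in Fam13a-/- and at 0.14 ± 0.07 in C57BL/6J (adjusted p = 0.524), where its log2 signals were 12.48 to 12.99 (median 12.77) after smoke and 12.12 to 12.90 (median 12.64) after air. It was 1 of 6 genes called among 11346, or 0.0529%, and the call held in each fit without 1 Fam13a-/- array (highest adjusted p 0.0321) but not under median scaling over all probes (adjusted p = 0.297). For no other endothelial gene did this difference pass the threshold in Fam13a-/-. Against C57BL/6J air, 0 of 40 genes differed in Fam13a-/- air, where 0% of all genes did so, and 3 endothelial genes had an unadjusted p below 0.05. Array quality weights called 1, again without a share of all genes to set beside it. Tmem204 was at 0.38 ± 0.11 in the main fit of this comparison (adjusted p = 0.502).

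**Figure D3:**
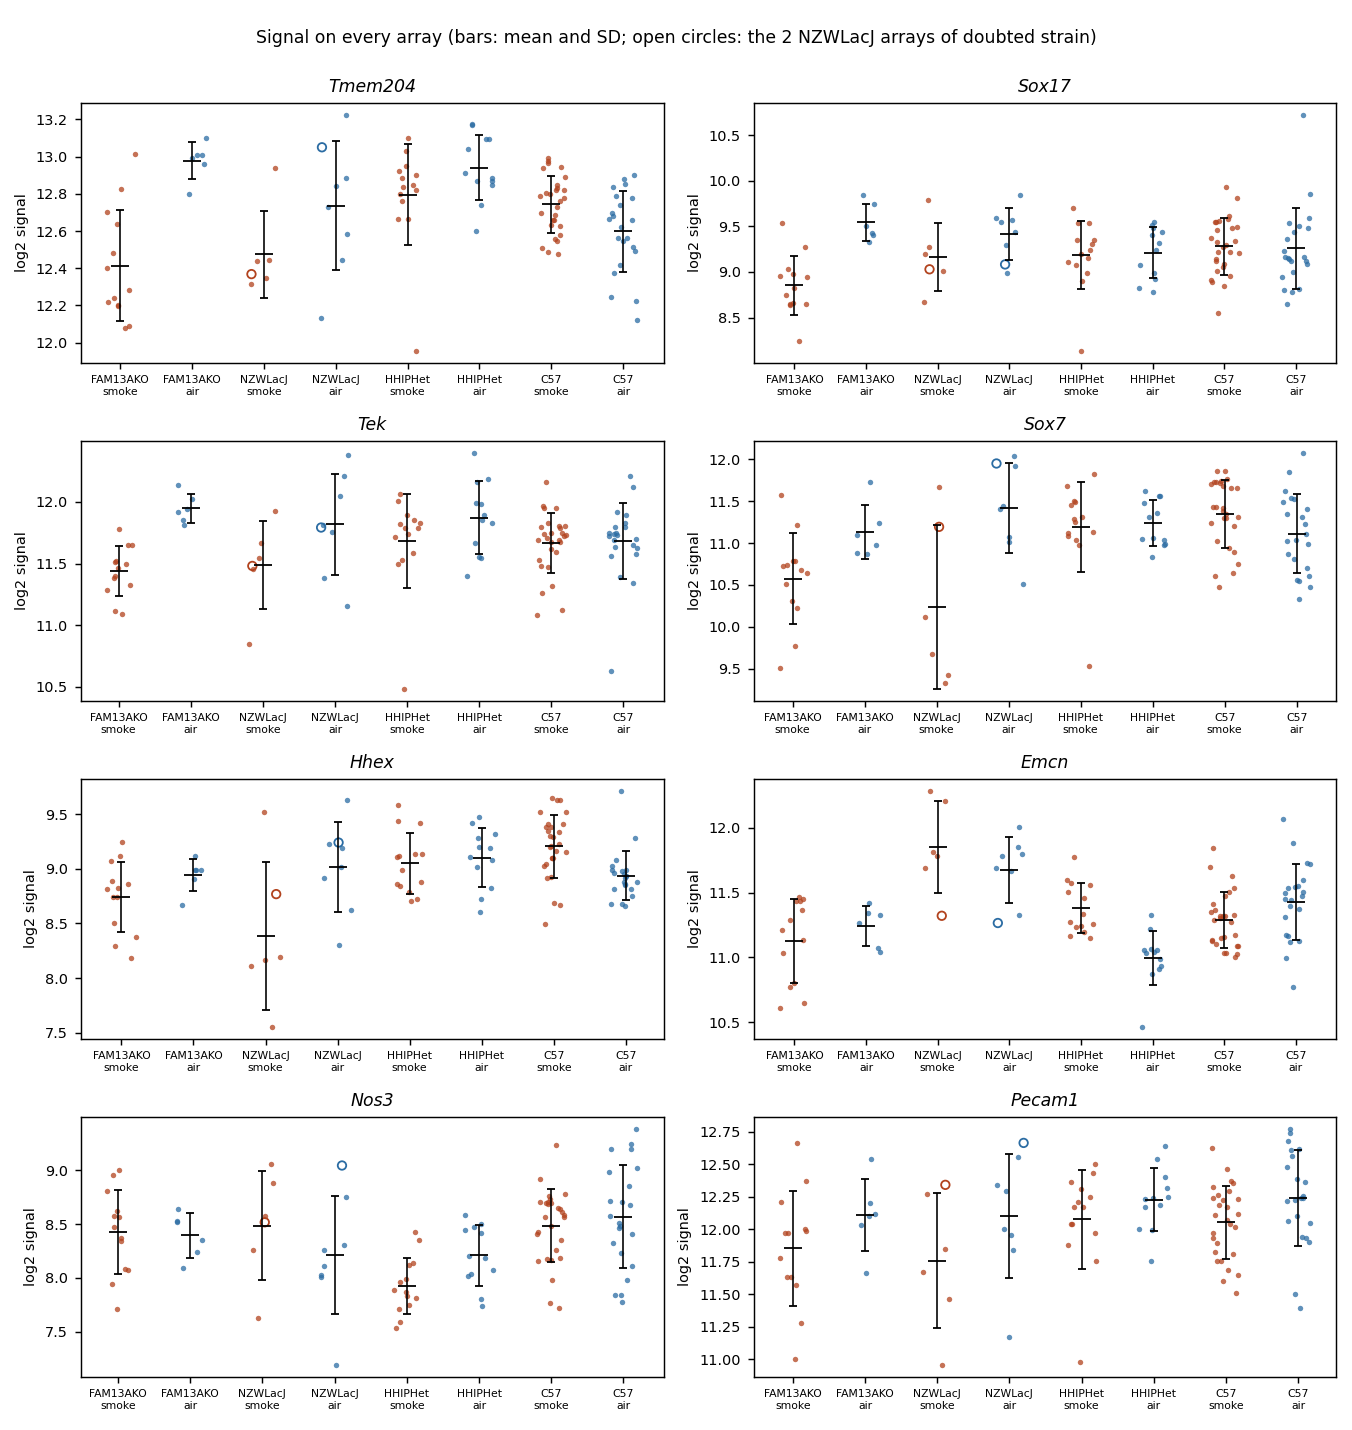
Log2 signal of 8 endothelial genes on each array, by group along the horizontal axis with smoke in red and air in blue; black bars are the mean and SD, and open circles are the 2 NZW/LacJ arrays of doubted strain. Tek after smoke in Fam13a-/- (FAM13AKO) lies wholly below air, and Sox7 and Hhex after smoke in NZW/LacJ lie mostly below air with 1 smoke array high.

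After smoke, Fam13a-/- lungs had 7 of 40 endothelial genes lower than C57BL/6J lungs and 0 higher, where 6.19% of all genes were called, 3.73% higher and 2.46% lower. This comparison shares the Fam13a-/- smoke arrays with the one against air. Sox7, an SOX F factor of embryonic and capillary endothelium, had log2 signals of 9.51 to 11.57 (median 10.68) in Fam13a-/- smoke and 10.48 to 11.87 (median 11.40) in C57BL/6J smoke, a 1.71-fold lower mean (-0.77 ± 0.16, adjusted p = 0.00108). Both kept probes of Sox7 gave this direction, the second with -0.83 ± 0.17. Hhex, a homeobox factor of blood and vessel progenitors, had 8.19 to 9.24 (median 8.82) in Fam13a-/- smoke and 8.49 to 9.64 (median 9.22) in C57BL/6J smoke (-0.46 ± 0.11, adjusted p = 0.00232). All these groups overlapped, but on 12 of 13 Fam13a-/- arrays each of the 2 genes lay below the C57BL/6J mean.

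Tmem204 was lower than in C57BL/6J smoke by 1.26-fold (-0.33 ± 0.08, adjusted p = 0.00341) and Sox17 by 1.34-fold (-0.42 ± 0.12, adjusted p = 0.0135). Plvap had 11.74 to 12.74 (median 12.14) in Fam13a-/- smoke and 11.85 to 13.05 (median 12.57) in C57BL/6J smoke (-0.31 ± 0.09, adjusted p = 0.0196). Robo4, a guidance receptor that steadies vessels, had 10.94 to 12.01 (median 11.36) in Fam13a-/- smoke and 11.16 to 12.47 (median 11.91) in C57BL/6J smoke (-0.35 ± 0.10, adjusted p = 0.0245). Gja4 was 1.31-fold lower (-0.39 ± 0.12, adjusted p = 0.0263). The 7 genes thus come from 5 of the 8 role groups, and 31 of the 40 had a negative difference, with a median of -0.19 against -0.02 for all genes.

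Of the 65 related genes, 9 were lower and 0 higher in Fam13a-/- smoke than in C57BL/6J smoke, where 2.46% of all genes were lower and 3.73% higher. The 6 with the smallest adjusted p were Hey1, a Notch target (-0.35 ± 0.09, adjusted p = 0.00706), Vegfd, a ligand of Flt4 (-0.44 ± 0.11, adjusted p = 0.00771), Dll4, the Notch ligand of tip cells (-0.55 ± 0.14, adjusted p = 0.00865), Ets1, Angpt1, the activating ligand of Tek, and Nrp1, a co-receptor for VEGF. Angpt1 was 1.49-fold lower and Nrp1 1.42-fold lower. Median scaling over all probes called 1 of the 40 here, Sox7 (adjusted p = 0.0082). Leaving out 1 Fam13a-/- smoke array called 5 to 8, and neither count has a share of all genes beside it. Robo4 missed without replicate 1, 2 or 5 (highest adjusted p 0.0711). Gja4 missed without replicate 5 or 11 (0.0728) and Plvap without replicate 13 (0.063). The mean of a gene's probes ended the calls of Robo4 (-0.09, adjusted p = 0.539) and Sox17 (-0.40, adjusted p = 0.12). The second kept probe of Robo4 was detected on 6 arrays. Robo4 was at 0.03 ± 0.21 within the 28 arrays that stood apart and at -0.51 ± 0.11 within the other 81.

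In NZW/LacJ, 2 transcription factors, Sox7 and Hhex, were lower after smoke than after air, and 0 endothelial genes were higher. These are 2 of 40 genes where 0.987% of all genes were called, 0.529% higher and 0.458% lower. Sox7, read by probe ILMN_2889482, had log2 signals of 9.43, 9.33, 9.68, 11.67, 11.19 and 10.11 on the 6 smoke arrays, against 10.52 to 12.04 (median 11.42) on the 8 air arrays. Of the 6 smoke arrays, 4 lay below all air arrays, while replicate 4 (11.67) and replicate 5 (11.19), which is of doubted strain, lay within the air range. The mean was 2.27-fold lower (-1.18 ± 0.26, adjusted p = 0.00976), and the second probe of Sox7 gave -1.02 ± 0.28 (adjusted p = 0.0544 over all kept probes).

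Hhex, read by probe ILMN_1245731, had 8.19, 7.55, 8.17, 9.52, 8.77 and 8.11 on the NZW/LacJ smoke arrays, against 8.30 to 9.63 (median 9.10) on the air arrays. The same 4 arrays were low and the same pair lay within the air range. The mean was 1.55-fold lower (-0.63 ± 0.17, adjusted p = 0.0418). The promoter of Hhex is shown because it is the second gene of this pair; RefSeq places it at chr19:37434591-37434890 on the plus strand of GRCm38.p6, and capitals mark its single ETS core, AGGAAG, with no match to AACAAT.

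Hhex promoter: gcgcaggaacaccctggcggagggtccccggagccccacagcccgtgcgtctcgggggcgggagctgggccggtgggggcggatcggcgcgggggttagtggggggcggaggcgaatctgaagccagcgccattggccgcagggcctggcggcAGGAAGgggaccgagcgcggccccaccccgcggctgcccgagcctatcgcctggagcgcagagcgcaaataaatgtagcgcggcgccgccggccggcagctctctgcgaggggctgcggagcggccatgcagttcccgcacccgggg

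Without the 2 arrays of doubted strain, Sox7 was 2.46-fold lower (-1.30 ± 0.28, adjusted p = 0.00215) and Hhex 1.60-fold lower (-0.67 ± 0.18, adjusted p = 0.0245), with 2 of 40 genes called where 2.54% of all genes were. A run of 6 NZW/LacJ arrays with consecutive sample numbers, smoke replicates 1, 2, 3 and 4 and air replicates 3 and 4, was also entered as a term. It holds all but 1 of the smoke arrays left, so it largely coincides with smoke in NZW/LacJ, and after smoke with strain. With this term Sox7 was at -1.35 ± 0.32 (adjusted p = 0.0264) and Hhex at -0.92 ± 0.21 (adjusted p = 0.0145). A fit on the NZW/LacJ arrays alone, which does not borrow the spread of the other groups, left both genes at an adjusted p of 0.916, and median scaling over all probes at 0.0837 for Sox7 and 0.507 for Hhex, with the median of all genes at -0.12. Each gene missed the threshold without smoke replicate 1, 2 or 3 (differences of -1.002 at the smallest for Sox7 and -0.46 for Hhex, adjusted p up to 0.15 and 0.418), Hhex also without air replicates 1, 4, 5, 6 or 8, and leaving out 1 array gave 0 to 5 calls.

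These smoke differences in NZW/LacJ were set against those in C57BL/6J, where Sox7 was at 0.24 and Hhex at 0.27 ± 0.09 (adjusted p = 0.172). The difference of differences was -1.42 ± 0.30 for Sox7 and -0.90 ± 0.19 for Hhex (adjusted p = 0.0126 for both), 2 of 40 genes where 0.414% of all were called. Without the 2 doubted arrays it was -1.54 ± 0.31 (adjusted p = 0.00199) and -0.95 ± 0.20 (adjusted p = 0.00387), and Klf2 was then called too, at 0.87 ± 0.24 (adjusted p = 0.0377), 3 of 40 where 1.75% were. Both differences missed the threshold in a fit on the NZW/LacJ and C57BL/6J arrays alone (adjusted p = 0.0624 for both) and without NZW/LacJ smoke replicate 1, 2 or 3 (highest adjusted p 0.148 and 0.163). Among the related genes, Hey1 and Arhgef15 were lower after smoke in NZW/LacJ (-0.62 ± 0.14, adjusted p = 0.0123, and -0.63 ± 0.17, adjusted p = 0.0396). These are 2 of 65, with 0 higher, where 0.987% of all genes were called. The difference from C57BL/6J passed for Hey1 (-0.72 ± 0.16, adjusted p = 0.0177) and for Id3, a BMP target (-0.70 ± 0.18, adjusted p = 0.0435), where 0.414% of all genes were called.

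The members of NZW/LacJ that did not pass lay on both sides after smoke. Sox18, another SOX F factor, differed by -0.67 ± 0.20 (adjusted p = 0.083), Tie1, the partner receptor of Tek, by -0.50 ± 0.18 (adjusted p = 0.172), and Klf2 by 0.64 ± 0.20 (adjusted p = 0.1). The median of the 40 was -0.18, against -0.05 for all genes. The heart muscle list had a median of 0.61 here, with summed signals of 14278 to 52924 (median 25555) after smoke and 7792 to 34269 (median 19432) after air; its part was not tested.

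NZW/LacJ differed from C57BL/6J in many endothelial genes under both exposures, in comparisons where 43.3% (air) and 50.7% (smoke) of all genes were called. After air, 9 of 40 were higher and 3 lower, which is 12 of 40, where 24.8% of all genes were higher and 18.5% lower. After smoke 13 were higher and 9 lower, which is 22 of 40, where 25.8% were higher and 24.9% lower. Both are near or below the share of all genes, so neither count is a result about these genes. The members were called in both directions within the same role groups. Whether a probe binds the transcript of both strains equally was not tested.

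Gja5, a gap junction gene of arteries, had log2 signals of 9.23 to 11.46 (median 10.88) in NZW/LacJ smoke and 8.23 to 10.05 (median 9.42) in C57BL/6J smoke. After air it had 10.29 to 11.44 (median 10.81) in NZW/LacJ and 8.78 to 10.36 (median 9.65) in C57BL/6J. It was thus 2.48-fold higher after smoke (1.31 ± 0.22, adjusted p = 4.31e-07) and 2.43-fold higher after air (1.28 ± 0.20, adjusted p = 9.77e-08), and all 8 NZW/LacJ air arrays lay above the C57BL/6J mean. Without the 2 doubted arrays the NZW/LacJ values began at 10.48 after smoke and 10.64 after air, above all C57BL/6J arrays of the same exposure. A second probe detected on all arrays gave 0.998 ± 0.17 after air, and a further probe, detected on 6 arrays, gave -0.16 ± 0.14.

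Icam1, which binds leukocyte integrins and in lung is also carried by flat alveolar epithelial cells, was lower in NZW/LacJ. It had 10.69 to 12.80 (median 11.22) in NZW/LacJ smoke and 12.27 to 12.87 (median 12.62) in C57BL/6J smoke (-1.06 ± 0.14, adjusted p = 1.88e-10), and 10.55 to 12.54 (median 11.60) in NZW/LacJ air and 12.11 to 12.78 (median 12.46) in C57BL/6J air (-0.86 ± 0.12, adjusted p = 1.16e-08). Without the 2 doubted arrays the smoke values of NZW/LacJ ended at 12.23, below all C57BL/6J smoke arrays, and the difference was -1.31 ± 0.13.

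Flt1 and Ptprb were higher in NZW/LacJ, while Flt4, the VEGF receptor of lymphatics, differed by -0.14 ± 0.23 after smoke and -0.09 ± 0.21 after air without passing. Flt1, a VEGF receptor that also acts as a decoy, had 12.97 to 14.03 (median 13.60) in NZW/LacJ smoke and 11.28 to 13.42 (median 12.58) in C57BL/6J smoke, a 1.97-fold higher mean, and was 1.87-fold higher after air (0.98 ± 0.18 and 0.90 ± 0.17, adjusted p = 4.82e-06 and 6.43e-06). Ptprb, a phosphatase that holds Tek in check, had 11.60 to 13.85 (median 13.38) in NZW/LacJ smoke and 9.68 to 12.99 (median 11.72) in C57BL/6J smoke. It differed by 1.34 ± 0.28 after smoke (adjusted p = 3.11e-05) and by 0.99 ± 0.25 after air (adjusted p = 0.000912). Robo4 was higher by 0.36 ± 0.14 after smoke and 0.57 ± 0.13 after air, while Acvrl1, a receptor for BMP ligands, was lower by 1.40-fold after smoke and by 1.46-fold after air.

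Several genes were called under both exposures with the same sign: Flt1, Robo4, Ptprb, Egfl7, Bmx and Gja5 higher, and Acvrl1 and Icam1 lower. Median scaling over all probes ended the smoke calls of Robo4 (0.19, adjusted p = 0.553), Egfl7 (0.16, adjusted p = 0.552) and Bmx (0.43, adjusted p = 0.0717) and the air call of Acvrl1 (-0.53, adjusted p = 0.0626), and the mean of a gene's probes ended the air call of Egfl7 (0.17, adjusted p = 0.119) and the smoke call of Robo4 (0.19, adjusted p = 0.0856). Egfl7, a secreted protein of the vessel matrix, was higher by 0.39 ± 0.13 after smoke and 0.53 ± 0.12 after air, and Bmx, a kinase of arterial and lymphatic endothelium, by 0.59 ± 0.14 and 0.50 ± 0.13. A dim Egfl7 probe, detected on 18 arrays, gave -0.40 ± 0.13 after air. Klf2 was called under both with opposite sign: it had 12.24 to 12.92 (median 12.55) in NZW/LacJ smoke against 11.35 to 12.71 (median 12.08) in C57BL/6J smoke (0.46 ± 0.17, adjusted p = 0.0156), and 11.45 to 12.39 (median 11.86) in NZW/LacJ air against 10.84 to 13.10 (median 12.50) in C57BL/6J air (-0.36 ± 0.15, adjusted p = 0.0456). The air call of Klf2 was lost without air replicate 2, 4, 5, 6 or 7 (adjusted p up to 0.133) and the smoke call without smoke replicate 3 (0.0702). Vwf, the clotting factor carrier stored in Weibel-Palade bodies, had 12.49 to 13.17 (median 12.79) in NZW/LacJ air and 11.81 to 12.90 (median 12.25) in C57BL/6J air (0.62 ± 0.14, adjusted p = 0.000136). Plvap and Sox18 were also higher after air, by 0.44 ± 0.11 and 0.43 ± 0.15, the second not without air replicate 4 (adjusted p = 0.103).

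The calls after smoke in NZW/LacJ against C57BL/6J also took in Emcn, Efnb2, Thbd, Mmrn2, Cav1 and Prox1 on the higher side, and Hhex, Sox7, Tie1, Epas1, Gja4, Tmem204 and Icam2 on the lower. Of these, the difference between the exposures passed for Sox7 and Hhex, as given above, and missed for the others. Sox7 was lower by 2.16-fold (-1.11 ± 0.22, adjusted p = 1.23e-05) and Hhex by 1.77-fold (-0.82 ± 0.14, adjusted p = 7.75e-07). Emcn, the sialomucin endomucin of veins and capillaries, had 11.32 to 12.29 (median 11.80) in NZW/LacJ smoke and 11.004 to 11.85 (median 11.30) in C57BL/6J smoke (0.56 ± 0.12, adjusted p = 2.7e-05). Efnb2, the arterial ephrin ligand, had 6.81 to 9.80 (median 9.60) in NZW/LacJ smoke and 5.20 to 8.43 (median 7.30) in C57BL/6J smoke (1.65 ± 0.38, adjusted p = 0.000171), and Thbd, the thrombin receptor thrombomodulin, differed by 1.07 ± 0.30 (adjusted p = 0.00226). With the 6 arrays of consecutive sample number as a term, and without the doubted arrays, Efnb2 was at 0.16 (adjusted p = 0.852) and Thbd at 0.02 (adjusted p = 0.977). Prox1 was detected on 1 of 6 NZW/LacJ and 2 of 28 C57BL/6J smoke arrays, so its difference of 0.34 ± 0.13 lies between values near background.

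Without the 2 doubted arrays, 21 genes were called after smoke, 13 higher and 8 lower, where 56.9% of all genes were, and 14 after air, 11 higher and 3 lower, where 46.7% were. Pecam1, not called in the fit of all arrays, was among the lower genes after smoke (-0.41 ± 0.17, adjusted p = 0.0331). It missed when the consecutive arrays were also a term (-0.43 ± 0.26, adjusted p = 0.203). With the arrays of consecutive number as a further term the smoke count was 10, where 29.7% of all genes were called (39.5% after air); Cav1, at 0.48 in the fit of all arrays, was then at -0.48, Ptprb at 0.69 (adjusted p = 0.193) and Flt1 at 0.66 (adjusted p = 0.0629). Leaving out 1 NZW/LacJ smoke array called 12 to 23 of the 40, the lowest count being without replicate 2. Calls after smoke that were lost in at least 1 such fit were those of Acvrl1, Cav1, Egfl7, Epas1, Gja4, Icam2, Klf2, Mmrn2, Prox1, Robo4, Tie1 and Tmem204, with adjusted p up to 0.198.

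**Figure D4:**
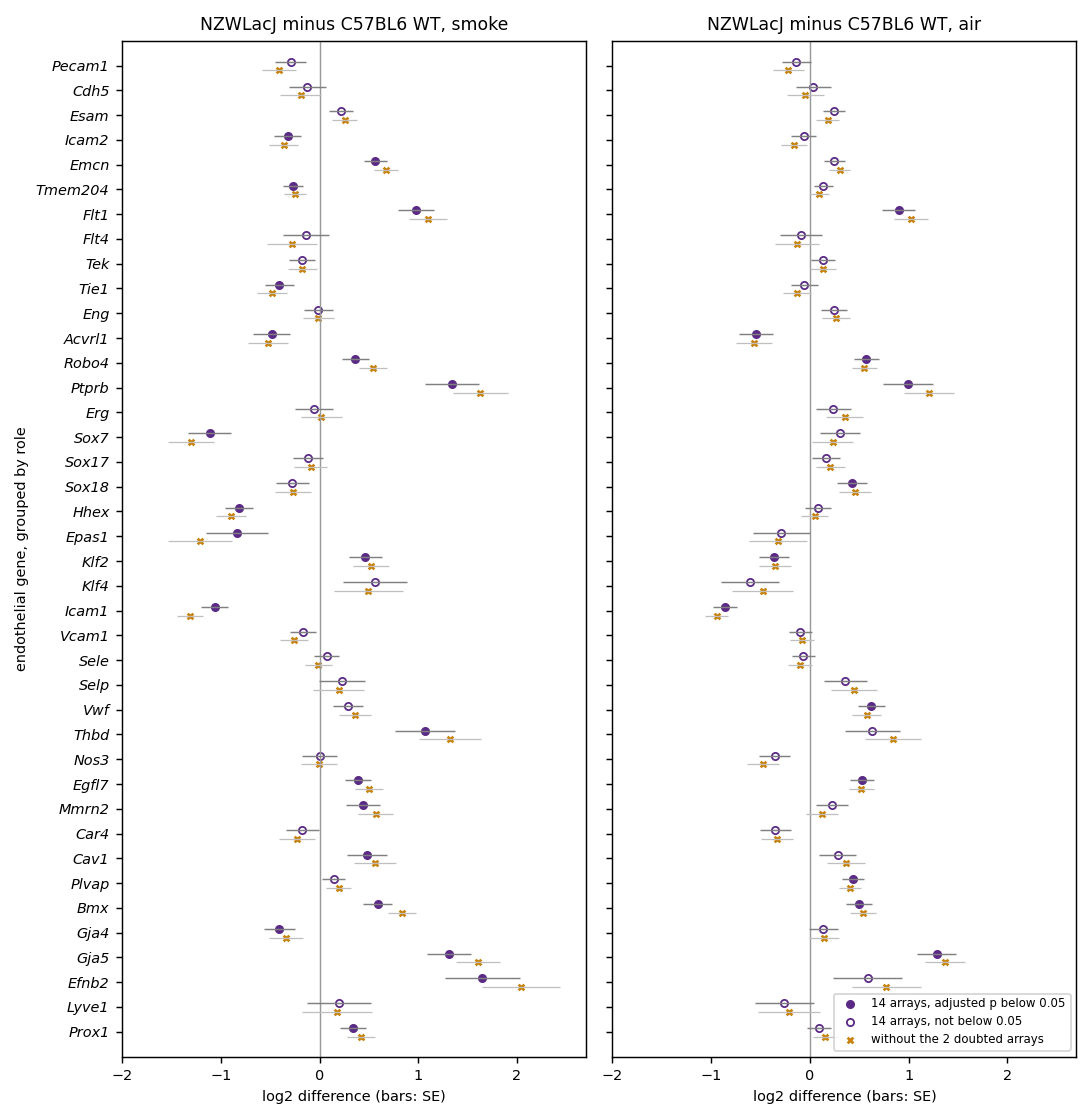
Log2 difference of each of 40 endothelial genes, NZW/LacJ minus C57BL/6J wild type, after smoke (left) and after air (right), with bars of 1 SE. Filled circles are calls at an adjusted p below 0.05 with all 14 NZW/LacJ arrays, open circles are not called, and crosses leave out the 2 arrays of doubted strain; Gja5, Flt1 and Ptprb lie right of 0 and Icam1 left of 0 in both panels.

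Among the 65 related genes, NZW/LacJ had 29 higher and 12 lower than C57BL/6J after smoke, and 26 higher and 7 lower after air, where 50.7% and 43.3% of all genes were called. Angpt4, an angiopoietin, was higher by 0.91 ± 0.13 after smoke and 1.14 ± 0.12 after air, and Ackr3, an atypical chemokine receptor, by 1.17 ± 0.19 and 0.93 ± 0.18. Adgrl4, an adhesion receptor of endothelium, was lower by 1.79-fold and 1.66-fold. The Notch ligand Jag1 was higher by 4.70-fold after smoke and 2.44-fold after air, and the receptor Notch1 by 2.77-fold and 1.71-fold. Ly6c1, a surface antigen of capillaries and monocytes, was lower by 2.26-fold after smoke and 1.46-fold after air.

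Hhip+/- lungs differed from C57BL/6J in 1 endothelial gene under each exposure, and the gene was not the same. After air, Emcn was lower: it had log2 signals of 10.46 to 11.33 (median 11.04) in Hhip+/- and 10.77 to 12.07 (median 11.46) in C57BL/6J. All 12 Hhip+/- arrays lay below the C57BL/6J mean, although the groups overlapped. The difference was -0.43 ± 0.09, a 1.35-fold lower signal (adjusted p = 0.0132), and Emcn was 1 of 7 genes called, or 0.0617% of all, 0.0176% higher and 0.0441% lower. Without Hhip+/- air replicate 6 it missed the threshold (-0.38, adjusted p = 0.0569), as it did under median scaling over all probes (-0.44 ± 0.17, adjusted p = 0.978). Tmem204 lay at 0.34 ± 0.08 in the same comparison (adjusted p = 0.0545), and was called with it in 5 of the alternative fits.

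After smoke Emcn had 11.15 to 11.78 (median 11.30) in Hhip+/- and did not pass against C57BL/6J (0.09 ± 0.08, adjusted p = 0.661). Smoke minus air within Hhip+/- was 0.38 ± 0.10 for Emcn (adjusted p = 0.0764), and its difference from that of C57BL/6J was 0.53 ± 0.12 (adjusted p = 0.338). The promoter of Emcn is shown as that of the gene called in Hhip+/- air; it lies at chr3:137340828-137341127 on the plus strand, and capitals mark an ETS core on each strand (CTTCCT and AGGAAG) and 1 match to AACAAT.

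Emcn promoter: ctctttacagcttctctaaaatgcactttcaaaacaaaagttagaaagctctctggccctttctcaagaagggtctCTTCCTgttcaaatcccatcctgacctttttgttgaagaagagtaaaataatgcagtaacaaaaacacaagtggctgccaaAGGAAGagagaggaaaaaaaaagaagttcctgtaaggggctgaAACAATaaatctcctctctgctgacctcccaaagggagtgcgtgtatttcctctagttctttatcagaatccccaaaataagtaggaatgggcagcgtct

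After smoke, Nos3, the endothelial nitric oxide synthase, was lower in Hhip+/- than in C57BL/6J. It had 7.53 to 8.43 (median 7.88) in Hhip+/- smoke and 7.72 to 9.24 (median 8.58) in C57BL/6J smoke, and all 14 Hhip+/- arrays lay below the C57BL/6J mean. The difference was -0.56 ± 0.13, a 1.48-fold lower signal (adjusted p = 0.00588), 1 of 40 genes where 1.87% of all were called, 0.978% higher and 0.89% lower. The 3 kept probes of Nos3 gave -0.56, -0.53 and -0.61, each passing over all kept probes, and the call held in each fit without 1 Hhip+/- smoke array (highest adjusted p 0.0146). After air, Nos3 lay at -0.36 ± 0.14 (adjusted p = 0.392), and the smoke difference of Hhip+/- minus that of C57BL/6J was -0.20 ± 0.19, so the exposures were not shown to differ.

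Of the 65 related genes, 3 were lower and 1 higher in Hhip+/- smoke against C57BL/6J smoke, where 0.89% of all genes were lower and 0.978% higher. Gpihbp1, which carries lipoprotein lipase to the capillary surface, was lower by 1.44-fold (-0.52 ± 0.08, adjusted p = 1.26e-05), She, an adaptor protein, by 1.29-fold and Tal1, a factor of blood and endothelial progenitors, by 1.26-fold. Heyl, a Notch target also active in pericytes, was 1.56-fold higher (0.64 ± 0.18, adjusted p = 0.0372).

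Within Hhip+/- and within C57BL/6J no endothelial gene passed for smoke against air by limma. In Hhip+/-, 0 of 40 passed where 0.247% of all genes did (0.203% higher, 0.0441% lower), 2 had an unadjusted p below 0.05, and Emcn was called when array quality weights were used or only Hhip+/- arrays were fitted. In C57BL/6J, with the largest groups, 0 of 40 passed where 0.952% did (0.811% higher, 0.141% lower), and 5 had an unadjusted p below 0.05: Hhex (0.27 ± 0.09), Acvrl1 (0.25 ± 0.12), Tmem204 (0.14 ± 0.07), Vcam1 (-0.18 ± 0.08) and Mmrn2 (-0.24 ± 0.11). The 40 differences in C57BL/6J had a median of -0.05 and 27 were negative, against a median of -0.01 for all genes.

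Across all arrays, pairs of endothelial genes were compared by the correlation of their deviations from the group means. The median correlation of the residuals over 780 gene pairs was 0.153, against 0.007 for pairs of all genes, and it was 0.195 within the 28 arrays that stood apart and 0.211 within the other 81. These are descriptions, since all pairs share the same arrays and normalization. Eng had the highest median correlation with the other members (0.39), followed by Pecam1 (0.32), Tmem204 (0.32) and Tek (0.31). Thbd, Efnb2, Ptprb and Cav1 formed the closest block, with correlations of 0.91 for Thbd and Efnb2, 0.90 for Ptprb and Thbd and 0.89 for Thbd and Cav1. Other pairs ran opposite, with -0.50 for Vcam1 and Egfl7, -0.47 for Egfl7 and Lyve1 and -0.46 for Epas1 and Prox1, and 5 members (Gja5, Sele, Selp, Bmx and Prox1) had a median correlation below 0 with the others. Within the 28 and the 81 arrays, Thbd and Efnb2 were at 0.76 and 0.78, Ptprb and Thbd at 0.84 and 0.74, and Thbd and Cav1 at 0.71 and 0.76.

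The 28 arrays that stood apart did not carry less of all endothelial genes. Efnb2 was 1.46 lower there than in the other 81 on the log2 scale of deviations from the group mean, Thbd 1.19 lower, Lyve1, the hyaluronan receptor of lymphatics and some macrophages, 0.995 lower and Ptprb 0.99 lower. Tie1 was 0.37 higher, Nos3 0.31 higher and Mmrn2, a matrix protein of endothelium, 0.29 higher, while Tek, Pecam1 and Emcn differed by at most 0.011 in either direction. These arrays made up 4 of 13 in Fam13a-/- smoke and 1 of 6 in Fam13a-/- air, and 2 of 6 in NZW/LacJ smoke and 3 of 8 in NZW/LacJ air. They also made up 2 of 14 in Hhip+/- smoke and 2 of 12 in Hhip+/- air, and 8 of 28 in C57BL/6J smoke and 6 of 22 in C57BL/6J air. Both arrays of doubted strain, NZW/LacJ smoke replicate 5 and air replicate 5, were among the 28. Most of the 28 lay in runs of consecutive sample numbers. With the 2 sets as a block, Tmem204, Sox17 and Tek in Fam13a-/- (differences of -0.57, -0.64 and -0.51) and Sox7 and Hhex in NZW/LacJ (-1.18 and -0.63) all passed. Plvap was also called in Fam13a-/- and Sox18 and Klf2 as further genes in NZW/LacJ. The sets were drawn from the residuals of the main fit, so passing with them as a block is not independent support. Within the larger set, Tmem204 was at -0.53 ± 0.13 (adjusted p = 0.0202), Sox17 at -0.61 ± 0.19 (0.0604), Tek at -0.51 ± 0.18 (0.0903), Sox7 at -1.28 ± 0.33 (0.0103) and Hhex at -0.63 ± 0.22 (0.08). Within the smaller set the same genes were at -0.66 ± 0.22, -0.75 ± 0.25, -0.44 ± 0.27, -0.94 ± 0.38 and -0.62 ± 0.21, with no adjusted p below 0.341 and 1 Fam13a-/- air array in that set.

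**Figure D5:**
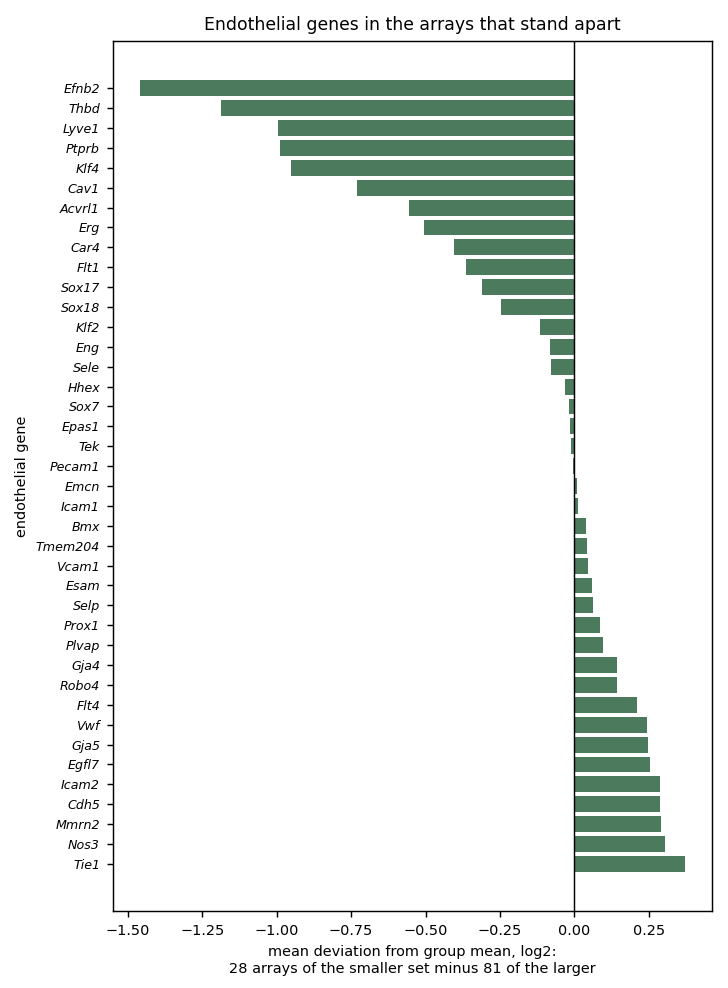
Mean deviation from the group mean (log2) in the 28 arrays that stood apart minus that in the other 81 arrays, for each of 40 endothelial genes. Efnb2 (-1.46) and Thbd (-1.19) lie lowest, and Tie1 (0.37) highest.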

How the data were processed

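RNA of whole mouse lungs was measured on Illumina arrays. The authors deposited probe intensity values with a detection p-value for 25697 probes per array, not normalized per the file headers, and also log2 normalized values, deposited by a method not given in the sources used here and kept as an alternative. The deposited intensities had array medians of 66.1 to 144.5; the number of arrays, not read depth, limits precision.

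Intensities were corrected and quantile normalized with neqc of limma 3.58.1 (R 4.3.3; background from detection p-values, offset 16, log2). A probe was kept with a detection p below 0.01 on at least 6 arrays (15363 probes), and each gene was read by its kept probe of highest mean signal. Of the probes, 23978 have 1 symbol and 1719 none; symbols were updated for 23962 through gene identifiers and 9 through accessions in RefSeq (GRCm38.p6). Of 63 probes with a member's symbol, 56 were kept, and 11 members have more than 1.

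All 8 groups entered 1 limma model of group means (101 residual degrees of freedom) with 13 two-sided contrasts, Benjamini-Hochberg adjustment over 11346 genes or unnamed probes and a threshold of 0.05. The NZWLacJ strain label was used where titles name C57. The members and lists were chosen with earlier results of these data known. Full values are given for members called in a comparison, up to 12 by smallest adjusted p, and for defining markers, and up to 6 called genes of the related lists are named. The 28 and 81 arrays are the sets of a k-means clustering, into a pair of clusters, of the leading principal components of the residuals. The fit was tested on simulated data. Of genes changed by 0.5 log2 after smoke, it recovered 33% in Fam13a-/-, 39% in NZW/LacJ and 88% in C57BL/6J. At a change of 1 log2 it recovered 89%, 80% and 97%. The alternatives were the authors' log2 values, median scaling, probe filters, probe averaging, array weights, fewer groups or arrays, and array sets, the scaling on always-detected probes and the fits within each set being chosen after seeing the data.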

Additional observations from a re-analysis of the deposited data

Results flagged for a closer look

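The smoke difference of a line was set against that of C57BL/6J by an interaction term, and 3 endothelial genes passed. In Fam13a-/- this was Tmem204 (-0.71). In NZW/LacJ these were Sox7 (-1.42) and Hhex (-0.90). Single arrays far from the others were sought in 30 endothelial genes over the 3 groups of 6 to 8 arrays, which is 90 sets of values, and chance marks about 1 in 20 such sets. Of the 90, 3 were marked. Tmem204 in NZW/LacJ smoke had replicate 4 at 12.94 with the next array at 12.45, a gap of 0.786 of the group's range; the same array was the highest of its group for Sox7 and Hhex. Egfl7 in NZW/LacJ air had replicate 1 at 13.92 with the next at 14.30, a gap of 0.711 of the range. Bmx in Fam13a-/- air had replicate 2 at 7.50 with the next at 7.16, a gap of 0.705.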

How the results depend on the processing

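Arrays of Fam13a-/-, NZW/LacJ and Hhip+/- were left out 1 at a time, while all C57BL/6J arrays were kept, so their influence was not tested. The number of endothelial genes called was then 1 to 4 for smoke against air in Fam13a-/-, 0 to 5 in NZW/LacJ and 0 to 1 in Hhip+/-. Against C57BL/6J smoke it was 5 to 8 for Fam13a-/-, 12 to 23 for NZW/LacJ and 1 to 1 for Hhip+/-, and against C57BL/6J air 0 to 0, 11 to 14 and 1 to 1. For the difference of smoke differences it was 1 to 1 for Fam13a-/-, 0 to 4 for NZW/LacJ and 0 to 0 for Hhip+/-. Median scaling over all probes, under which the median of all genes lay as low as -0.17, called 0 for smoke against air in Fam13a-/- and NZW/LacJ, 0 for Hhip+/- against C57BL/6J air, 0 for both differences of smoke differences, 1 for Fam13a-/- and 12 for NZW/LacJ against C57BL/6J smoke. Array weights called 12 for smoke against air in Fam13a-/-, 8 in NZW/LacJ and 1 in Hhip+/-, 3 for Hhip+/- and 1 for Fam13a-/- against C57BL/6J air, and 8, 8 and 2 for the differences of smoke differences of Fam13a-/-, NZW/LacJ and Hhip+/-. The share of all genes called under these weights is not given here, so these counts are not a result about the endothelial genes. Fitting only the groups compared called 0 for smoke against air in NZW/LacJ and 1 in Hhip+/-, 2 for Hhip+/- against C57BL/6J air and 0 for the NZW/LacJ difference. The authors' values called 1 for NZW/LacJ smoke against air and 2 for Hhip+/- against C57BL/6J air, a filter on probes detected on most arrays 1 for NZW/LacJ smoke against air, and the mean of a gene's probes 2 for Hhip+/- against C57BL/6J air. The 2 array sets as a block called 4 for NZW/LacJ smoke against air, and 2 for Hhip+/- against each C57BL/6J group. The term for consecutive arrays called 10 for NZW/LacJ against C57BL/6J smoke, where Cav1 turned to -0.48. Chosen after seeing the data, median scaling over always-detected probes and the larger array set each called 1 for NZW/LacJ smoke against air, and the smaller set called 0 for smoke against air in Fam13a-/- and NZW/LacJ, 0 for Hhip+/- against either C57BL/6J group, 3 for NZW/LacJ against C57BL/6J air, 3 for Fam13a-/- and 0 for NZW/LacJ against C57BL/6J smoke, and 0 for both differences; there Robo4 (Fam13a-/- against C57BL/6J smoke) was at 0.0316, and Tie1 and Epas1 (NZW/LacJ against C57BL/6J smoke) at 0.0825 and 0.42. The smaller set holds fewer samples and includes both NZW/LacJ arrays of doubted strain. The cause of the other changes was not tested. Of the alternatives for single genes, 557 kept direction and side of the threshold, 126 kept direction only and 4 reversed. No paired analysis was possible because replicate numbers are names in accession order and pair no samples.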
